A study of Mus musculus with 9 samples.

Results

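The protein components of the cytosolic ribosome were followed in stromal cells of mouse bone marrow. Members were the genes named Rpl or Rps followed by a number and at most 1 letter (a, x, y or l), together with Rplp0, Rplp1, Rplp2 and Rpsa, wherever a transcript cluster on the array carried that symbol alone. This gave 59 genes of 19938 measured, 37 of the large subunit and 22 of the small subunit. Where several rows (transcript clusters) carried a gene, the brightest over all arrays stood for it.

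Expression came from 9 Affymetrix Mouse Gene ST 1.0 arrays of young adult mice of the C57Bl/6J strain. A single YFP-negative array and 3 YFP-positive arrays held sorted cells of mice transgenic for IL7-Cre and heterozygous for Rosa-eYFP, in which YFP marks any cell where the Il7-driven Cre is or once was active. A further 3 arrays held the same gate from wild-type mice, and 2 arrays of total bone marrow from wild-type mice were the control. The gate took cells without CD45 and lineage antigens but with CD54 and BP1, from mice aged 6 to 12 weeks, and yielded 1800 to 10000 cells per YFP-positive or wild-type sample and 2300 cells for the YFP-negative sample. Total marrow is a mixture of all marrow cells and entered as 10 ng of RNA, so input differed along with the cells. All RNA was amplified before hybridization. The labels do not say that replicates came from separate animals, and p-values here measure the spread between samples, which may be technical.

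Ribosomal proteins join ribosomal RNA in the nucleolus to form a small subunit, which decodes the mRNA, and a large subunit, which forms the peptide bond. Their mRNAs are among the most abundant in any cell, and most begin with a run of pyrimidines (the TOP motif) through which mTOR signalling sets how strongly they are translated. Several have a duplicated copy with narrower expression in the mouse, such as Rpl10l and Rpl39l in the testis and Rpl3l in striated muscle. Bone marrow is sensitive to their dose, and mutations in some of them cause the human red cell disorder Diamond-Blackfan anaemia.

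The start of the transcript is shown for 8 members because the pyrimidine run is the sequence feature that the naming rule did not use. Windows are from the RefSeq promoter table (build GRCm38.p6), 10 bases before and 20 bases from the annotated start, with the run in capitals.
Rps6 (chr4:86857348-86857377, minus strand): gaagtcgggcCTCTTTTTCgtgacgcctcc
Rps10 (chr17:27635225-27635254, minus strand): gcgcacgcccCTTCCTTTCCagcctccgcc
Rpl28 (chr7:4792955-4792984, plus strand): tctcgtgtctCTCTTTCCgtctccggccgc
Rpl38 (chr11:114668570-114668599, plus strand): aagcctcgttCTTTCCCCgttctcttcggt
Rplp2 (chr7:141447641-141447670, plus strand): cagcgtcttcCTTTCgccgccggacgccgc
Rpl14 (chr9:120571507-120571536, plus strand): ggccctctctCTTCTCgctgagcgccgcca
Rplp0 (chr5:115559457-115559486, plus strand): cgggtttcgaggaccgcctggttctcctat
Rpl39l (chr16:10170218-10170247, plus strand): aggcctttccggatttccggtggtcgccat
The first 6 windows begin at a C followed by at least 4 pyrimidines, and those of Rplp0 and Rpl39l do not at the start given. Among the 56 promoters that the table holds for 47 of the 59 members, 10 (17.9%) began this way, against 2.51% of all 32851 promoters in it. An annotated start that lies a few bases off the true start misses the run.

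Other letters were also commoner in the members' windows of 300 bases (250 before and 50 from the start). CTTCCG, the core that ETS factors bind, stood on either strand in 35 of the 56 (62.5%), against 16.9% of all promoters. TCTCGCGA on either strand was in 10 (17.9%), those of Rps6, Rps19, Rps28 and 6 other genes, against 0.995%. TATAAA in the 50 bases before the start, on the sense strand, was in 0 of 56, against 2.63%. CTTCCG and TCTCGCGA cannot overlap each other, though the pyrimidine run can overlap CTTCCG, and a match is only a description. The stretch upstream of Rpl39l is shown because this gene is set apart by its values below. It carries CGGAAG, the reverse strand of CTTCCG, at the places in capitals.
Rpl39l upstream (chr16:10170077-10170196, plus strand): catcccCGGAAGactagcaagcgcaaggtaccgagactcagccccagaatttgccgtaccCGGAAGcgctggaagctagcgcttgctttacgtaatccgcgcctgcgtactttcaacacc

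Some arrays stood apart. The YFP-negative array had a lower distribution than the others, with a median of 3.46 over all rows against 4.51 to 4.60, and is therefore compared after quantile normalization. Among array quality weights, the lowest was that of YFP-positive replicate 3 (0.311) and the highest 1.69. The sort held on the array: Icam1 (CD54) and Enpep (BP1) were called higher, and Ptprc (CD45) lower, in both of the replicated sorted groups than in total marrow. Il7, which was not a marker of the gate, was called higher in both groups as well. YFP-negative cells also gave an Il7 signal. As deposited it read 5.87, against 6.41 to 7.87 in YFP-positive cells and 3.40 and 3.19 in total marrow. After quantile normalization Il7 differed by −0.29 between YFP-negative and YFP-positive cells.

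Ribosomal protein transcripts were near the top of every array. The median member ranked above 98.91% to 98.96% of all rows in YFP-positive cells and 99.02% to 99.09% in wild-type cells, against 99.36% to 99.40% in total marrow. The brightest was Rps29, a small-subunit protein, with a mean of 12.70 over the arrays (log2 signal), and the dimmest Rpl3l, the striated muscle copy of Rpl3, with 3.29. Between 45 and 48 members were in the top 5% of rows of an array. The members together held 4.29% to 4.31% of the summed linear signal in YFP-positive cells and 4.34% to 4.72% in wild-type cells, against 5.71% to 5.79% in total marrow. Levels of different rows are not calibrated against each other, so these shares describe arrays and not protein amounts.

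YFP-positive cells were compared with total marrow to ask how the reporter-marked stroma differs from the marrow as a whole. Most ribosomal protein transcripts were lower: limma called 49 of 59 lower, against 18.5% of all rows, and 2 higher, against 11%. The median change of the members was −0.84 on the log2 scale, where the median over all rows was 0.09, and 19 members were lower by at least 1 log2 unit (14.9% of all rows). Both subunits took part, with 30 of 37 large-subunit and 19 of 22 small-subunit genes called lower. For 55 members every YFP-positive array lay below both marrow arrays (27.1% of all rows), and for 2 every one lay above (32.7%). Without total marrow replicate 1 or 2 the lower calls numbered 23 or 26, and without YFP-positive replicate 3 they numbered 41. Such fits have fewer residual degrees of freedom, and the share of all rows called in them is not given. In bulk samples, fewer cells of a type and less RNA per cell cannot be told apart.

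**Figure D1:**
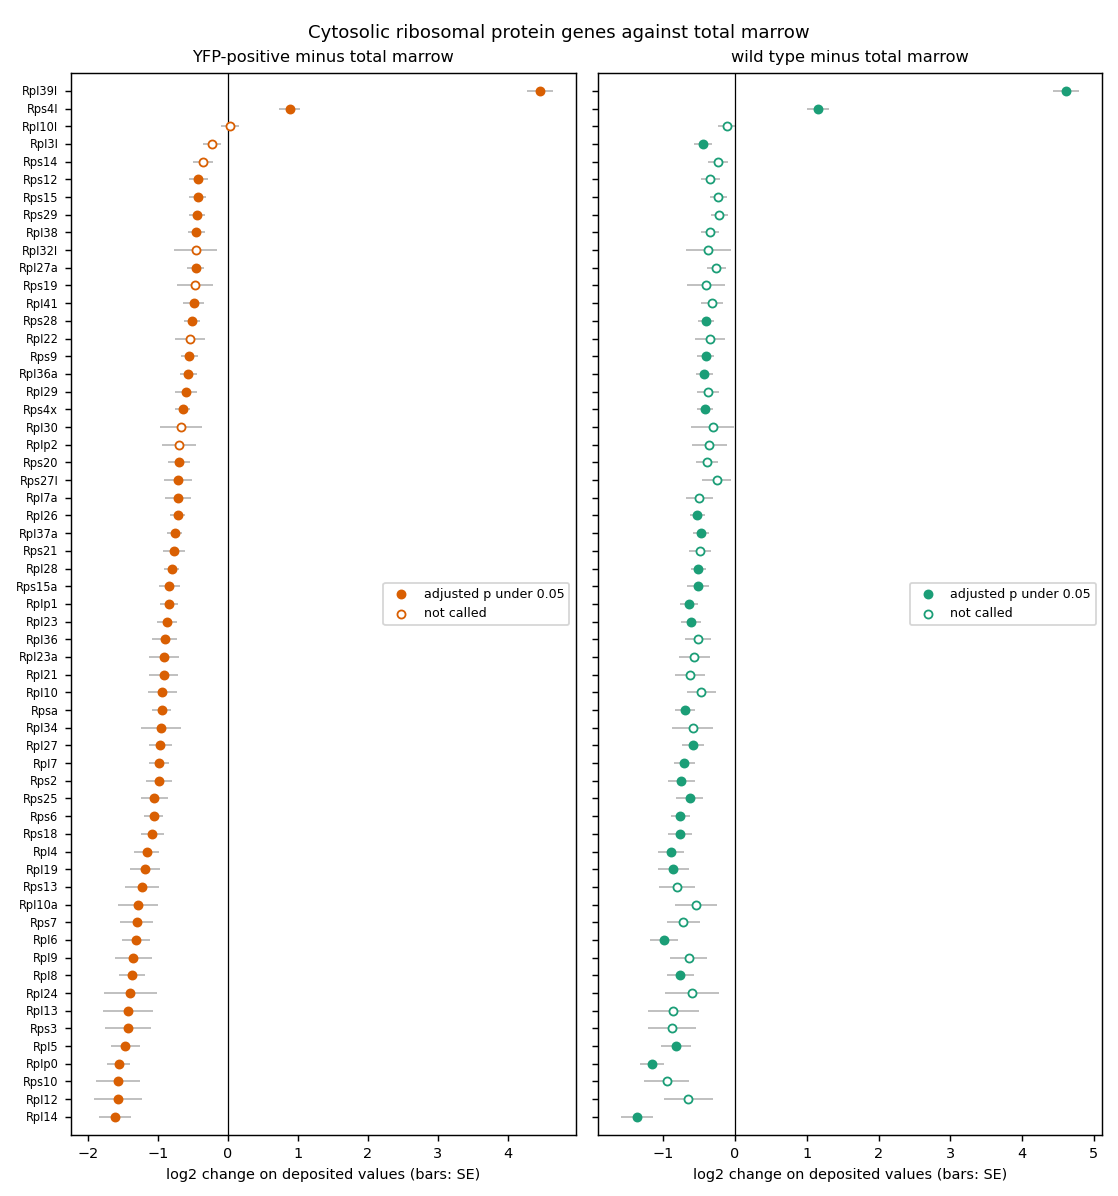
Log2 change of each of the 59 genes on deposited values, in YFP-positive cells (left) and wild-type cells (right) against total marrow, with bars of 1 SE and filled points at an adjusted p under 0.05. Rpl39l and Rps4l lie to the right of 0 in both panels, and 49 (left) and 25 (right) filled points lie to the left.

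The stalk of the large subunit, which calls elongation factors to the ribosome, held one of the largest decreases. Rplp0, its base, read 10.49, 10.50 and 10.72 in YFP-positive cells, against 12.21 and 12.06 in total marrow. The change was −1.56 ± 0.16 (SE, n = 3 and 2, limma adjusted p = 0.00026). Its partner Rplp1 read 12.32, 12.03 and 12.09 in YFP-positive cells, against 13.02 and 12.95 in total marrow, a change of −0.84 (adjusted p = 0.00198). All YFP-positive arrays were below both marrow arrays for either gene. Rplp2, the other partner, differed by −0.70 and was not called (adjusted p = 0.073); its row was dim, 5.67 to 6.35 in YFP-positive cells against 6.65 and 6.76 in total marrow. Rpl12, which anchors the stalk, changed by −1.57 (adjusted p = 0.0115) on a row that read 4.04 to 5.19 in YFP-positive cells against 5.92 and 6.26 in total marrow. A brighter row that Rpl12 shares with Gm32899 changed by less, −0.62 (adjusted p = 0.0142).

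Among the other large-subunit proteins Rpl14 had the lowest change. It read 7.61, 7.59 and 7.48 in YFP-positive cells, against 8.94 and 9.39 in total marrow. The 3 sorted values lay close together and well below the marrow values, and the change was −1.61 ± 0.23 (SE, adjusted p = 0.0013). Rpl5, which with Rpl11 and 5S RNA binds Mdm2 when ribosome assembly fails, read 9.52, 9.83 and 9.12 in YFP-positive cells, against 10.99 and 10.91 in total marrow (change −1.46, adjusted p = 0.00151). Rpl8, a protein near the peptidyl transferase centre, changed by −1.37, Rpl6 by −1.31 and Rpl4 by −1.16, all called. Rpl10 (−0.94), which joins late in assembly, and Rpl38 (−0.45), which in mouse embryos is needed to translate Hox mRNAs, were called lower too. Rpl22, required for T cell development in the mouse, differed by −0.54 and was not called (adjusted p = 0.0939). Rpl30 (−0.67) and Rpl32l (−0.46), both on dim rows, were not called either, though a brighter row that Rpl30 shares with 2 predicted genes was lower (−0.84, adjusted p = 0.013), as was a bright row that Rpl32l shares with Rpl32 (−1.15, adjusted p = 0.00719).

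**Figure D2:**
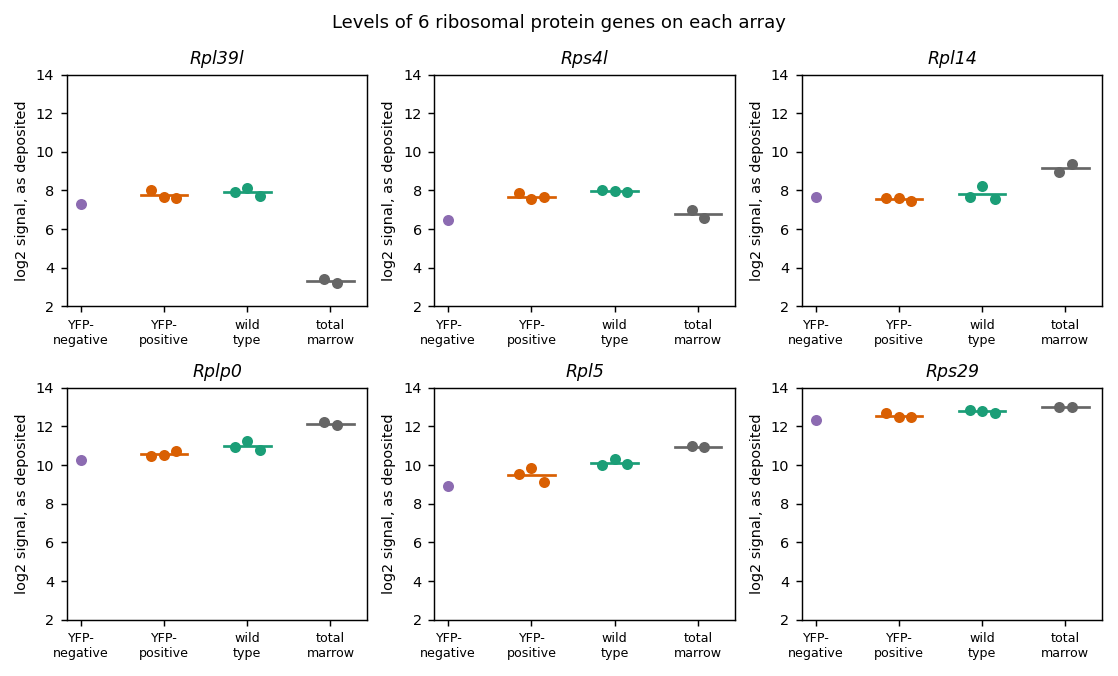
Deposited log2 signal of 6 genes on each array, with a line at the mean of each group of 2 or more arrays. Rpl39l lies at 7.59 to 8.12 in YFP-positive and wild-type cells and at 3.19 and 3.43 in total marrow, while Rpl14, Rplp0 and Rpl5 lie highest in total marrow.

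On the small subunit, Rps10 and Rps3 were lowest. Rps10, a Diamond-Blackfan anaemia gene, read 11.15, 10.90 and 10.17 in YFP-positive cells, against 12.39 and 12.22 in total marrow, a change of −1.57 ± 0.31 (SE, adjusted p = 0.0077). Rps3, at the channel where mRNA enters, changed by −1.43 (adjusted p = 0.0146) and was lowest in YFP-positive replicate 3, at 8.43 against 9.49 and 9.65 in the other YFP-positive arrays. Rps6, the target of the S6 kinases, changed by −1.06 (adjusted p = 0.000881). Rpsa, also known as the laminin receptor precursor, read 11.69, 11.73 and 11.58 in YFP-positive cells, against 12.69 and 12.54 in total marrow (change −0.95, adjusted p = 0.00162). Small decreases were called for Rps29 (−0.44), Rps15 (−0.43), Rps12 (−0.42), Rps4x (−0.65) and Rps9 (−0.55), and Rps14 (−0.36, adjusted p = 0.0963) was not called. A dimmer row of Rps14 was called lower (−0.76, adjusted p = 0.00121). Rps19, the gene most often mutated in Diamond-Blackfan anaemia, differed by −0.47 and was not called (adjusted p = 0.219), while a row it shares with the pseudogene Rps19-ps3 changed by −1.89 (adjusted p = 0.000244).

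The size of a gene's decrease depended on the row chosen. Ribosomal protein genes have many processed copies in the mouse genome, and 39 members had 2 or more rows, 215 rows over all members. All rows of a gene had the same sign in each of the 39, and 204 of the 215 rows were called lower and 2 higher in YFP-positive cells. In 23 of the 38 genes whose rows were all lower, no row showed a smaller decrease than the brightest, ties included. Some rows of a gene, such as the 3 of Rpl41, read the same on every array. Rows are thus not all separate measurements. For Rps9 the row used changed by −0.55 and its other row by −1.80. By marrow level, the 24 members at 11 to 12 had a median change of −1.02 and were all called lower, and the 17 at 12 to 14 had −0.80. The 11 members below 9 had −0.47, with 2 called lower. The share of all rows called at each level is not given, so these counts have no background. The marrow values that set the level also enter the change, so the 2 are not independent. A further 16 ribosomal protein symbols occur only in rows shared with other genes and are no members; in their brightest rows 14 were called lower and 0 higher, with changes of −1.48 (Rpl15) to −0.44 (Rpl39).

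Wild-type cells of the gate were set against the same 2 marrow arrays, so both comparisons share their control. Fewer members were called, 25 lower (13.9% of all rows) and 2 higher (10.4%), with 16 of 37 large-subunit and 9 of 22 small-subunit genes lower. The median change was −0.51, against 0.00 over all rows, and 2 members, Rpl14 and Rplp0, were lower by 1 log2 unit or more (10.8% of all rows). Every wild-type array lay below both marrow arrays for 54 members (28.2%) and above both for 2 (25.5%). The lower calls in wild-type cells numbered 3 or 8 without total marrow replicate 1 or 2, and 14 or 11 without wild-type replicate 1 or 3. The share of all rows called is not given for these fits either.

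Rpl14 was again lowest. It read 7.66, 8.22 and 7.53 in wild-type cells, against 8.94 and 9.39 in total marrow, a change of −1.36 ± 0.23 (SE, n = 3 and 2, adjusted p = 0.00323). Rplp0 read 10.93, 11.24 and 10.78 in wild-type cells, against 12.21 and 12.06 in total marrow, a change of −1.15 (adjusted p = 0.0014). The groups did not overlap for either gene. Rpl6 (−0.98), Rpl4 (−0.89), Rpl5 (−0.82), Rps6 (−0.76), Rpsa (−0.69) and Rplp1 (−0.64) were called lower as well. Rps10 (−0.95, adjusted p = 0.0682), Rps3 (−0.88, adjusted p = 0.106), Rps29 (−0.22), Rps15 (−0.23) and Rps14 (−0.24) were not called. Dimmer rows of Rps15 (−0.58, adjusted p = 0.0252, and −0.45, adjusted p = 0.0198) and Rps14 (−0.62, adjusted p = 0.0037) were called lower. Rpl3l was called lower in wild-type cells alone of the 2 groups (−0.45, adjusted p = 0.0376; YFP-positive −0.22, adjusted p = 0.222), but it read 3.14 to 3.23 in wild-type cells and 3.50 and 3.75 in total marrow, all below the median row of the array. The difference between the sorted groups was itself not called for Rpl3l (0.22, adjusted p = 0.381).

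The exception in both comparisons was Rpl39l, the copy of Rpl39, a small protein of the peptide exit tunnel. It read 8.03, 7.66 and 7.59 in YFP-positive cells and 7.92, 8.12 and 7.71 in wild-type cells, against 3.43 and 3.19 in total marrow. Sorted and marrow values were separated by about 4 log2 units with no overlap. The change was 4.46 ± 0.19 in YFP-positive cells (SE, adjusted p = 1.41e-06) and 4.61 ± 0.19 in wild-type cells (adjusted p = 1.12e-06), or 21.9-fold and 24.4-fold. Within its array Rpl39l ranked above 89.9% to 91.5% of rows in YFP-positive cells and 88.6% to 90.8% in wild-type cells, against 25.8% and 18% in total marrow. The marrow values are thus below the median row, and the size of the fold rests on how well so dim a signal is measured. Leaving out single arrays gave 4.32 to 4.58 in YFP-positive cells and 4.49 to 4.73 in wild-type cells. Rpl39 itself was measured only in rows shared with other genes. In the brightest, shared with Gm32211, it differed by −0.44 in YFP-positive cells (adjusted p = 0.0546) and −0.10 in wild-type cells (adjusted p = 0.785). Another row shared with Gm32211 read 11.11, 11.14 and 10.80 in YFP-positive cells, against 11.52 and 11.53 in total marrow (−0.51).

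Neighbouring genes of Rpl39l were looked up because its transcript cluster could read a nearby gene. In the RefSeq gene order its nearest protein-coding neighbours, Grin2a and Atf7ip2, do not overlap it. They read 2.64 to 3.51 in YFP-positive cells, and differed from total marrow by 0.06 and −0.04. Non-coding genes and pseudogenes near Rpl39l were not listed. Emp2, an epithelial membrane protein gene lying beyond Atf7ip2, was higher by 5.82 in YFP-positive cells and 6.05 in wild-type cells (adjusted p = 3.71e-06 and 2.82e-06). Whether the signals of Emp2 and Rpl39l are linked was not tested.

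Rps4l, a copy of the X-linked Rps4x that RefSeq lists as a transcribed pseudogene, was the other gene called higher. It read 7.84, 7.57 and 7.65 in YFP-positive cells and 8.0, 7.95 and 7.92 in wild-type cells, against 7.01 and 6.60 in total marrow. The groups did not overlap, and the change was 0.88 ± 0.15 (SE, adjusted p = 0.00402) and 1.15 ± 0.15 (adjusted p = 0.000999). A second, dimmer row of Rps4l differed by 0.41 in YFP-positive cells (adjusted p = 0.0947) and rose by 0.76 in wild-type cells (adjusted p = 0.0097). Rps4l overlaps Tmtc1, a transmembrane protein gene whose own row was higher by 1.86 and 1.87 (adjusted p = 0.000459 and 0.000447). The part of that overlap in the Rps4l signal was not tested. Rps4x itself was called lower in both comparisons (−0.65 and −0.41). Other copies with narrow expression did not rise: Rpl10l, the testis copy of Rpl10, read 3.90 to 4.27 in the sorted cells against 4.07 and 4.25 in total marrow, with changes of 0.03 and −0.10. Rps27l, a p53 target, was called lower in YFP-positive cells (−0.71, adjusted p = 0.032) and differed by −0.26 in wild-type cells (adjusted p = 0.481).

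Much of the decrease moved with the arrays' distributions. The 99th percentile of all rows was 10.55 to 10.86 in YFP-positive arrays and 10.82 to 11.11 in wild-type arrays, against 11.37 and 11.43 in total marrow. The median member followed the same order, with 10.42 to 10.82, 10.83 to 11.18 and, in total marrow, 11.71 and 11.79. Quantile normalization, which gives all arrays one distribution, therefore lowers the marrow values of bright rows.

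**Figure D3:**
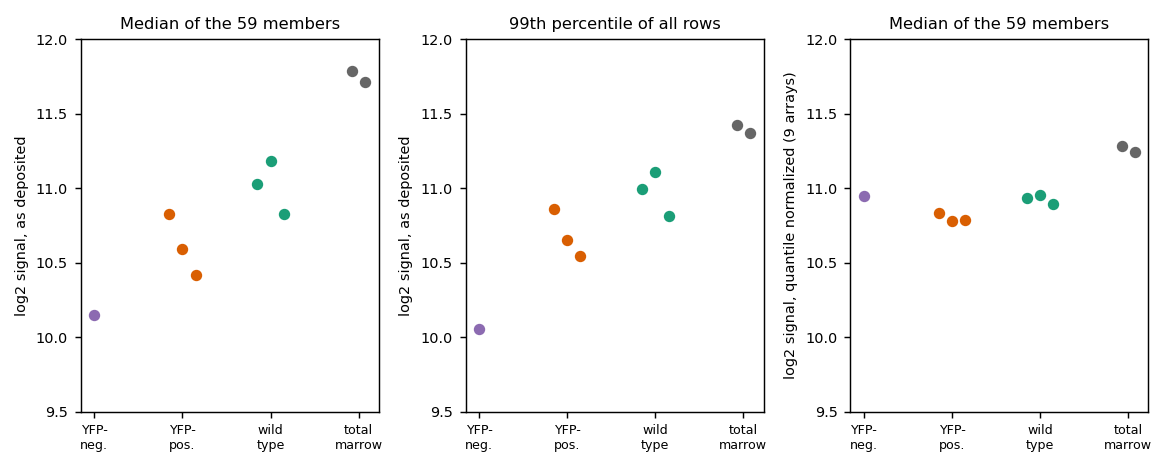
Median log2 signal of the 59 genes as deposited (left), 99th percentile of all rows as deposited (middle) and median of the 59 genes after quantile normalization of the 9 arrays (right), 1 point per array. Total marrow is highest in all 3 panels, and after normalization its arrays read 11.25 and 11.28 against 10.78 to 10.96 in the others.

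After quantile normalization of the 8 arrays without YFP-negative, 14 members were called lower in YFP-positive cells (23.7%, against 14.2% of all rows) and 2 higher (12.1%). The median change of the members was −0.35, against 0.05 over all rows. All 14 were among the 49 called before. In wild-type cells 6 members were called lower, 10.2% of members against 12.1% of all rows, and 2 higher (10.4%), with a median change of −0.27 against 0.02. Members lower by at least 1 log2 unit numbered 4 in YFP-positive cells (11.1% of all rows) and 1 in wild-type cells (9.45%).

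The 6 genes called lower in wild-type cells after normalization were Rpl14, Rplp0, Rpl6, Rplp1, Rpsa and the dim Rpl3l, and as a share of members they did not exceed the share of all rows. Both comparisons use the same marrow arrays, so a call in each is not independent and the values are only set side by side. On the normalized scale Rpl14 changed by −1.16 and −1.17, Rplp0 by −1.04 and −0.88, Rpl6 by −0.65 and −0.61, Rplp1 by −0.61 and −0.51, and Rpsa by −0.58 and −0.44, in YFP-positive and then wild-type cells. Rpl3l differed by −0.33 (adjusted p = 0.0658) in YFP-positive cells and changed by −0.42 (adjusted p = 0.0307) in wild-type cells. Rpl39l (4.61 and 4.51) and Rps4l (1.23 and 1.25) were called higher in each. Rpl12, Rps10, Rpl5, Rpl9, Rpl8, Rps15a, Rps25, Rpl28 and Rpl27 were called lower after normalization in YFP-positive cells. The direction turned in at least 1 comparison for Rpl10l, Rpl27a, Rpl36a, Rpl38, Rps12, Rps15, Rps27l, Rps29, Rps4x and Rps9, whose normalized changes lay between −0.19 and 0.14. The turn is that of the row used for each gene, and other rows are not given on this scale. As deposited, the other rows of Rpl27a changed by −0.81 to −1.34 in YFP-positive cells, against −0.46 for the row used. Those of Rpl38 changed by −0.46 to −0.49, against −0.45.

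**Figure D4:**
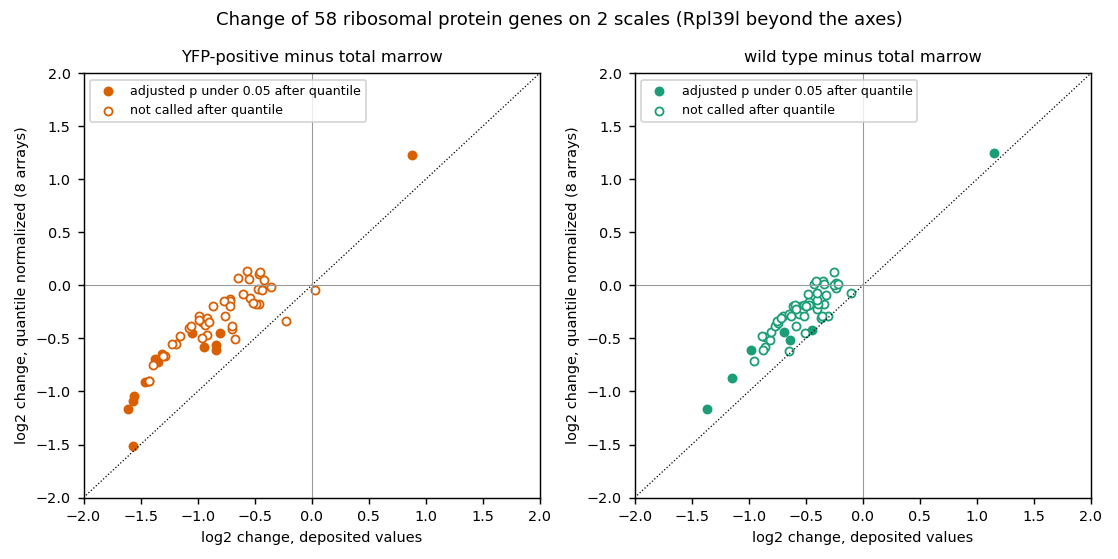
Log2 change on deposited values (horizontal) against the change after quantile normalization of 8 arrays (vertical) for 58 genes, in YFP-positive (left) and wild-type cells (right) against total marrow; Rpl39l lies beyond the axes. Most points lie above the dotted line of equality, and the filled ones are called after normalization.

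Several other groups of genes of the translation apparatus were called lower more often than all rows, of which 18.5% were called lower in YFP-positive cells and 13.9% in wild-type cells. These lists were chosen with earlier results of the same arrays known, and counts are given for YFP-positive and then wild-type cells. Of 50 factors of ribosome assembly, 27 were called lower and 0 higher in YFP-positive cells and 13 and 0 in wild-type cells. They include Nhp2 (−2.65 and −2.03) and the methyltransferase Fbl (−2.37 and −2.15), which modify ribosomal RNA, and nucleophosmin, Npm1 (−2.40 and −1.39). Of 30 initiation factors 18 and 10 were lower, led by Eif3m (−2.44 and −1.73), and 1 was higher in both, Eif4a2 (0.84 and 1.12). Of 10 elongation factors and related genes 6 and 6 were lower, with Eef1b2, a nucleotide exchange factor, at −2.01 and −1.28. They include Eef1e1 (−2.29 and −1.35), a protein of the tRNA synthetase complex, and Eef2k (−0.70 and −0.92), the kinase that inhibits elongation factor 2, so not all of them promote elongation. RNA polymerase I genes were lower in 5 and 1 of 15, Polr1a by −1.71 and −0.98. Of 17 regulators of ribosomal protein mRNA 5 and 1 were lower, among them Myc (−1.16, adjusted p = 0.00846, and −0.51, adjusted p = 0.189). Larp1, which binds the pyrimidine start, differed by −0.10 and 0.10, and the kinase gene Mtor by 0.06 and −0.22, none of these called. For the polymerase and regulator lists the wild-type counts (6.67% and 5.88%) were below the share of all rows.

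Of 5 ribosomal or related genes that the naming rule misses, 3 and 2 were called lower. Fau, the source of the small-subunit protein eS30, changed by −1.22 and −0.89, and Rps3a1 by −1.12 and −0.84, all called. Rsl24d1, a factor of large-subunit assembly, changed by −0.93 (adjusted p = 0.0498) and differed by −0.51 in wild-type cells. Rpl7l1 (−0.90 and −0.53) and Rps19bp1 (−0.05 and −0.17) were not called. Of the 10 measured genes linked to Diamond-Blackfan anaemia, all members, 9 were lower in YFP-positive cells and 5 in wild-type cells. Mitochondrial ribosomal proteins, which serve the organelle's own ribosome, were lower in 45 and 14 of 77, with Mrps35 at −2.08 and −1.50, and higher in 1, Mrps6 (1.89 and 2.70). The wild-type share, 18.2%, was near that of all rows. After quantile normalization, where 14.2% and 12.1% of all rows were called lower, the lower counts were 19 and 11 for assembly factors, 13 and 9 for initiation factors, and 4 and 3 for the elongation list. They were 4 and 1 for RNA polymerase I, 1 and 1 for the regulators, 1 and 1 for the ribosomal genes the rule misses, 4 and 0 for the anaemia genes, and 22 and 6 for mitochondrial ribosomal proteins. The regulators in both groups, and RNA polymerase I, the anaemia genes and the mitochondrial proteins in wild-type cells, were then below the share of all rows.

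Most markers of dividing and blood cells were lower in the sorted cells too. The median change of the cell cycle genes was −3.73 in YFP-positive cells and −3.72 in wild-type cells. All 25 stayed called lower in both after quantile normalization of 8 arrays. All 25 measured cell cycle genes were lower in both sorted groups, with a summed linear signal of 1043 to 1221 in YFP-positive arrays and 1064 to 1260 in wild-type arrays, against 10120 to 10990 in total marrow. Of 11 erythroid markers 11 were lower in both (summed signal 211 to 284 and 219 to 497, against 3741 to 4589). Of 17 B lineage markers 16 were lower and 1 was called higher in each group. Of 19 neutrophil markers 17 were lower in YFP-positive cells and 18 in wild-type cells. All 15 reticular stroma markers were higher in both (29600 to 33040 and 32220 to 34030, against 655 to 797). Their part in the ribosomal protein values was not tested.

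YFP-positive cells were compared with wild-type cells of the gate to ask whether the reporter-marked cells differ from the gate as a whole; genotype differs along with the reporter. No member was called (0 of 59 by limma, 0% of all rows), and at an unadjusted p under 0.05 there were 18 lower (9.12% of all rows) and 0 higher (5.8%). The median change was −0.29, against 0.05 over all rows, and 57 of 59 members had a mean below that of wild type. After quantile normalization the median was −0.06 and 41 were below. YFP-positive arrays lay wholly below wild-type arrays for 22 members (8.72%) and above for 1, Rpl3l (13%).

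The smallest p belonged to Rpl8. It read 10.04, 10.32 and 9.81 in YFP-positive cells, against 10.63, 10.89 and 10.49 in wild-type cells, without overlap. The difference was −0.61 (95% interval −1.0 to −0.23, adjusted p = 0.243). Rpl5 differed by −0.65 (adjusted p = 0.262), Rpl28 by −0.29 (0.284), Rpl9 by −0.71 (0.29) and Rpl12 by −0.92 (0.29). For 50 of the 59 members the interval lay within 1 log2 unit of 0, as for 81.1% of all rows. Rpl39l differed by −0.16 (95% interval −0.54 to 0.23) and Rps4l by −0.27 (−0.59 to 0.05).

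The YFP-negative cells of the gate were on 1 array, so the fit lends it the spread of the replicated groups. After quantile normalization of the 9 arrays 2 members were called higher than in YFP-positive cells (3.39% of members, 4.46% of all rows) and 3 lower (5.08%, against 3.26%). The median change was 0.08, against −0.01 over all rows. As deposited, the median change of the members was −0.55, where that of all rows was −0.91. With the arrays of these 2 groups alone 0 members were called, and without wild-type replicate 1 or 2, whose spread the fit uses, 3.

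Lower in YFP-negative cells was Rps2, a small-subunit protein, which read 9.13 in YFP-negative cells, against 10.52, 10.95 and 11.19 in YFP-positive cells on the normalized scale (change −1.75 ± 0.30 SE, limma adjusted p = 0.02). Rpl29 (−1.10, adjusted p = 0.0405) and the stalk protein Rplp1 (−0.78, adjusted p = 0.0336) were also lower. The higher genes were Rplp2, at 7.87 in YFP-negative cells against 6.26, 5.95 and 5.79 in YFP-positive cells (1.86, adjusted p = 0.0141), and Rps15a (1.05, adjusted p = 0.019), both on dim rows. Rplp1 and Rplp2, partners in the stalk, had opposite signs. Of these calls, 3 depended on the row. In the brightest rows shared with other genes, Rps2 differed by −0.20 (adjusted p = 0.571), Rpl29 by 0.13 (adjusted p = 0.777) and Rps15a by −0.27 (adjusted p = 0.206) after normalization of all rows of the file. As deposited, the shared Rpl29 row read 10.27 in YFP-negative cells, against 10.95, 10.93 and 10.24 in YFP-positive cells, and the shared Rps15a row 10.83 in YFP-negative cells, against 11.75, 11.66 and 11.59 in YFP-positive cells. Dimmer rows that Rpl29 shares with other genes went both ways, from −1.81 to 0.82 after normalization. For Rps2, Rpl29 and Rps15a the direction or the call was thus not seen in the brightest shared row. The other rows with the symbol Rps2 alone were low as well. As deposited they read 7.79 and 8.77 in YFP-negative cells, against 9.27 to 9.62 and 10.24 to 10.69 in YFP-positive cells. On that scale the median change of all rows was −0.91. Rpl39l read 8.23 in YFP-negative cells, against 7.97, 7.72 and 7.82 in YFP-positive cells, and was not called (0.39, adjusted p = 0.217). Rps4l read 7.49 in YFP-negative cells, against 7.78, 7.61 and 7.88 in YFP-positive cells (−0.27, adjusted p = 0.365).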

How the data were processed

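The authors deposited a log2 signal for each transcript cluster on each array, computed in Affymetrix Expression Console 1.3.1 by RMA according to the submitters' processing notes; whether all arrays were summarised together is not given in the sources used here. RNA was amplified with a NuGEN whole-transcriptome kit, per the labels' protocols. Of 35556 rows, the 21789 with 1 gene symbol in the platform annotation entered a limma fit of all 9 arrays (limma 3.58.1 under R 4.3.3, group means by lmFit and then eBayes, with 5 residual and 2.5 prior degrees of freedom). Tests were two-sided, and calls were made at a Benjamini-Hochberg adjusted p under 0.05 over all rows. The fit was also run on simulated data with independent noise around each row. These data had no shift of whole arrays, so they do not bear on the choice of normalization. All 59 member symbols matched the RefSeq gene table by Entrez ID. Another 8 symbols that fit the naming rule had no annotated row.

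Members were named by rule: the 6 largest and 6 smallest changes in each comparison with total marrow, those called higher, the 5 smallest p between the sorted groups, those whose direction turned after quantile normalization, a list of members with known roles, and the brightest and dimmest. From the other lists up to 4 called genes, and genes beyond the rule were named after their values were seen. Members and lists were chosen with earlier results of these data known. Arrays have no depth, so their number limits the precision.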

Additional observations from a re-analysis of the deposited data

How the results depend on the processing

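The decrease against total marrow kept its direction on average but not its size. Members called in YFP-positive cells (51 on deposited values) numbered 16 and 17 after quantile normalization of 8 and 9 arrays and 13 after cyclic loess, with median changes of −0.35, −0.36 and −0.20. Leaving out single arrays gave 25 to 50, with the lowest counts without total marrow replicate 1 (25) or 2 (28), and medians of −0.91 to −0.78. In wild-type cells (27) the counts were 8, 8 and 7, with medians of −0.27, −0.27 and −0.18, and array weights gave 41. Leaving out single arrays gave 5 to 33: 5 without total marrow replicate 1, 10 without replicate 2, 16 without wild-type replicate 1 and 13 without replicate 3, with medians of −0.60 to −0.47. Fewer arrays leave fewer residual degrees of freedom. Apart from quantile normalization of 8 arrays, the share of all rows called is not given for the variants in this section. A general loss of calls thus cannot be told from one in the members alone. Between YFP-positive and wild-type cells the count was 0 throughout, and the median was −0.063 and −0.061 after quantile normalization of 8 and 9 arrays, 0.012 after cyclic loess and −0.34 to −0.21 without single arrays.

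For YFP-negative against YFP-positive cells (5 called, median 0.08) deposited values gave 28 and −0.55, centred arrays 15 and 0.56, cyclic loess a median of −0.053, an intensity trend 8 called, bright rows alone 2 and 0.036, all rows of the file 0.042 and the arrays of both groups alone 0. Without single arrays the values were 3 to 4 and 0.069 to 0.10. Same-numbered YFP-positive and wild-type arrays correlated at −0.06 to −0.01 in their deviations, and differently numbered ones at −0.12 to 0.16. Sample numbers thus showed no sign of pairing the arrays, though so few arrays cannot exclude it. With the replicate number as a block, 42 members were called in YFP-positive cells, 17 in wild-type cells, 0 between them and 0 in YFP-negative cells.

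Single genes turned after quantile normalization of 8 arrays, then after cyclic loess, in YFP-positive cells: Rpl10l (−0.043, −0.10), Rpl27a (0.11, 0.28), Rpl36a (0.14, 0.13), Rpl38 (0.13, 0.28), Rps12 (0.051, 0.34), Rps4x (0.072, 0.049) and Rps9 (0.064, 0.10). Cyclic loess alone turned Rps14 (0.42), Rps15 (0.34), Rps19 (0.030) and Rps29 (0.40, then called higher). In wild-type cells Rpl27a (0.12, 0.19), Rpl38 (0.042, 0.086), Rps12 (0.014, 0.12), Rps15 (0.025, 0.24), Rps27l (0.0035, 0.058) and Rps29 (0.0087, 0.31) turned under both, Rpl36a (0.0092) and Rps4x (0.038) under quantile and Rps14 (0.24) under cyclic loess. Rpl28 between the sorted groups turned under cyclic loess (0.014). Rpl10l ranged from −0.061 to 0.12 without single arrays. All these values are of the row used for each gene. The cause of these turns was not tested. Of the other values of single members, 599 kept direction and call, 116 lost and 8 gained a call.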
